A study of Ornithorhynchus anatinus with 3 samples.

Results

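In the gene table of the platypus (Ornithorhynchus anatinus) ovary library, 182 loci are 0.885 to 0.975 kb long and lie in groups. They were chosen by length and position alone: a locus had to share an unplaced scaffold (named Ultra or Contig in the assembly) with at least 1 other locus of this length, or to lie within 200 kb of one on a numbered chromosome. They are 182 of 22369 loci in the table, and 182 of the 534 loci of this length on numbered chromosomes, Ultra and Contig scaffolds. The X chromosomes and the mitochondrial genome were left out. The libraries come from 3 adult wild-caught animals: ovary of an ovulating female (RNA integrity number 9.3), fibroblasts of a male (8.9) and fibroblasts of another, ovulating female (9.9). Fibroblasts are connective tissue cells that grow in culture, and the study's text speaks of a cell line. The labels name no treatment, and how the cells were cultured is not given in the sources used here. Each group holds 1 library, so that no difference between groups has a replicate check and sex cannot be told apart from the individual.

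Genes of this length that stand in rows are typical of chemoreceptors. Olfactory receptors, which bind odorants in the nose, and the vomeronasal receptors of family 1 (V1R), which sit in the vomeronasal organ and bind pheromone-like cues, are G protein-coupled receptors with 7 membrane-spanning segments whose coding sequence is a single uninterrupted exon. Both families grew by tandem duplication, so that copies lie side by side and many have decayed into pseudogenes. The platypus is known for a large V1R repertoire. In their sensory neurons, usually 1 receptor gene is active in each cell, and outside sensory organs most members of these families are silent.

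Whether the clustered loci are such receptors could not be read from the files, because the identifiers are not paired with gene names. For the same reason the tissue labels could not be checked against marker genes. The RefSeq gene table of a later assembly (mOrnAna1.pri.v4) holds no Ensembl identifiers and gave no name to any of them. It shows how many platypus genes of this length carry a V1R symbol. Of its 18152 protein-coding genes, 421 span 0.885 to 0.975 kb, and 148 of these (35.2%) carry a V1R symbol (ORNANAV1R and a number). Another 253 carry only a provisional LOC symbol and 20 carry other symbols, and olfactory receptors were not counted separately among them. Among the 190 protein-coding V1R genes, 77.9% fall into this range of lengths, compared to 1.52% of all other protein-coding genes. A further 471 V1R entries are pseudogenes. A length in this range is thus frequent for V1R genes, but it does not identify a locus as one.

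Loci of 0.885 to 0.975 kb were more numerous than loci of neighbouring lengths. The 534 loci of this range compare with 253 of 0.794 to 0.884 kb and with 173 of 0.976 to 1.066 kb, ranges of the same width. With the same rule for groups applied to each range, 34.1% of the loci between 0.885 and 0.975 kb were clustered. In the other 8 ranges between 612 and 1430 bp this share lay between 0% and 9.62%, and their largest group held 6 loci. Length and grouping are what the members were chosen by, so these counts describe the choice and are no separate support for it. The ranges also hold unequal numbers of loci, and the shares were not adjusted for this. The clustered loci had a median length of 934.5 bp (quartiles 921 and 942.75 bp). The commonest single lengths were 936 bp (18 loci), 927 bp (15 loci) and 939 bp (13 loci), which would encode 311, 308 and 312 amino acids if they are coding sequence with a stop codon.

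**Figure D1:**
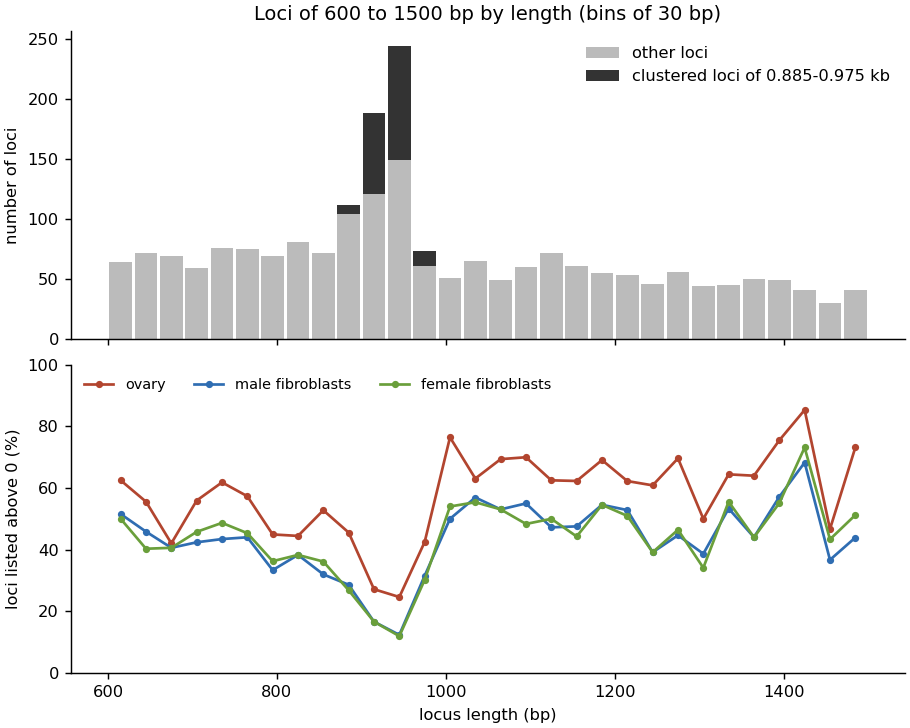
Number of loci of 600 to 1500 bp on numbered chromosomes, Ultra and Contig scaffolds in bins of 30 bp (top; dark parts are the 182 clustered loci of 0.885 to 0.975 kb) and percentage of the loci of each bin listed above 0 in the ovary, male fibroblast and female fibroblast libraries (bottom). The bins from 900 to 929 bp and from 930 to 959 bp hold most loci, 188 and 244, and have the lowest percentages, for example 24.6% in ovary and 12.3% in male fibroblasts for the second of them.

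A coding sequence has a length that is a multiple of 3, a property that the rule for members did not use. Of the 182 clustered loci, 142 had such a length (78.0%, 95% Wilson interval 71.5% to 83.4%), where equal numbers of all remainders would give 33.3%. The share was 57.1% (51.9% to 62.2%) for the 352 loci of 0.885 to 0.975 kb that were not clustered and 47.4% (44.8% to 50.0%) for 1405 unclustered loci of the other ranges. These intervals, like all intervals given here, cover counting error only, and loci of one gene family are not independent. In the largest group the share was 89.2% (58 of 65 loci), and it was 71.8% over the remaining 117 loci.

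The 182 loci fall into 46 groups, of which 36 lie on Contig scaffolds (85 loci), 9 on Ultra scaffolds (95 loci) and 1 on chromosome 4 (2 loci). Most groups are small, with 31 pairs and 14 groups of 3 to 6 loci. The exception is scaffold Ultra163, which holds 65 loci (35.7% of all). Neighbouring members mostly followed each other directly: in 96 of 136 pairs of neighbours (70.6%) no other listed locus lay wholly between them. The median distance from start to start was 9.86 kb on Ultra163 (quartiles 7.91 and 15 kb) and 11.6 kb in the other groups (6.42 and 29.9 kb). On scaffolds the rule set no limit of distance, and 9 of the 182 loci, on Ultra274, Contig819, Ultra368, Ultra505 and Contig14, lie farther than 200 kb from any other member. At the limits of length, of the 10 loci of 0.976 to 0.980 kb and the 18 of 0.880 to 0.884 kb, 1 each lay on a scaffold with members, and both were at 0 in all libraries.

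The question that the libraries can address is whether these loci are transcribed in ovary and in fibroblasts, tissues outside the chemosensory organs. Most were not detected. In ovary, an FPKM (fragments per kilobase of transcript, scaled to the mapped fragments of the library) above 0 was listed for 25 of the 182 loci (13.7%, 9.48% to 19.5%). In male fibroblasts, an RPKM (the same measure counted in reads) above 0 was listed for 9 (4.95%, 2.62% to 9.13%). In female fibroblasts this was the case for 8 (4.40%, 2.24% to 8.43%). Over all loci on the same kinds of chromosome and scaffold, the percentages were 69.5% in ovary, 64.1% in male fibroblasts and 65.0% in female fibroblasts. In all, 154 clustered loci (84.6%) were at 0 in every library, 17 were above 0 in ovary only, 3 in a fibroblast library only and 6 in all 3 libraries. The same joint counts over all loci are not given here, so no preference of the clustered loci for ovary can be read from them.

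The difference from other loci of like size was large against counting error. Of the 1940 other loci of 600 to 1500 bp, 55.7% were listed above 0 in ovary, and the difference of the clustered loci from them was -42.0 percentage points (95% Newcombe interval -46.8 to -35.8). In male fibroblasts the share of these other loci was 41.4%, and the difference was -36.4 points (-39.6 to -31.7). In female fibroblasts it was 41.7%, and the difference was -37.3 points (-40.4 to -32.7). No p-value is given, since a single library per group gives no spread between samples.

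Within the length range the clustered loci had a lower share than the unclustered ones. Unclustered loci of 0.885 to 0.975 kb were listed above 0 in 36.6% of 352 cases in ovary, 23.6% of 351 in male fibroblasts and 22.8% of 351 in female fibroblasts. The difference of the clustered loci from these was -22.9 points in ovary (-29.6 to -15.4), -18.7 points in male fibroblasts (-24.0 to -12.8) and -18.4 points in female fibroblasts (-23.5 to -12.7). Loci of other lengths that were clustered by the same rule were above 0 in 54.2% of 72 cases in ovary, 38.9% in male fibroblasts and 44.4% in female fibroblasts. Unclustered loci of other lengths reached 59.8% in ovary, 45.4% in male fibroblasts and 45.5% in female fibroblasts, so that the intervals of clustered and unclustered loci of other lengths overlap in each library. On the scaffolds that hold members, the 50 other loci of 600 to 1500 bp outside the range were above 0 in 46.0% of cases in ovary (33.0% to 59.6%), 26.0% in male fibroblasts and 32.0% in female fibroblasts.

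**Figure D2:**
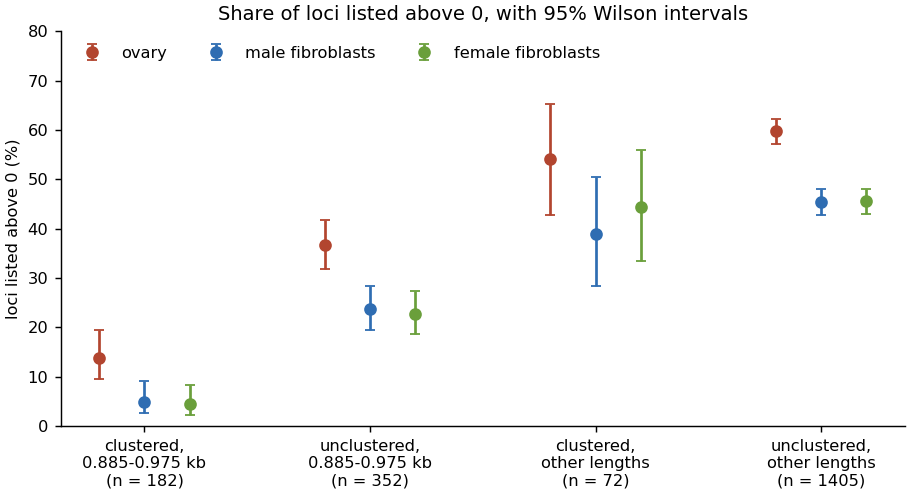
Percentage of loci listed above 0 in each of the 3 libraries (points; bars are 95% Wilson intervals, which cover counting error only) for loci of 0.885 to 0.975 kb and of other lengths from 612 to 1430 bp, clustered or not by the same rule. The 182 clustered loci of 0.885 to 0.975 kb have the lowest share in each library, 13.7%, 4.95% and 4.40%, and their intervals do not reach those of the other sets. The clustered set of other lengths pools ranges whose single shares in ovary lie between 16.7% and 100%.

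With a higher minimum the clustered loci remained scarce. An FPKM of at least 1 was listed for 9 of them in ovary (4.95%), compared to 57.4% of all loci. An RPKM of at least 1 was listed for 4 in male fibroblasts (2.20%; 50.6% of all loci) and for 3 in female fibroblasts (1.65%; 50.7% of all loci). These are 9 loci in all, since each member that reached 1 in fibroblasts also did so in ovary. How often this holds over all loci is not given here. The 9 members lie on Ultra274 (3 loci), Contig819 (4 loci), Ultra484 (1 locus) and chromosome 4 (1 locus). In the remaining 42 groups with 168 loci, the highest value was 0.825 FPKM in ovary, 0.0555 RPKM in male fibroblasts and 0.0884 RPKM in female fibroblasts, and 33 groups were at 0 throughout.

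Scaffold Ultra163 shows the pattern on one stretch of DNA. Its 65 members lie between positions 620145 and 1420462 of the scaffold, together with 15 other loci of 123 to 883 bp. In ovary, 8 of the 65 were above 0, the highest at 0.465 FPKM. In male fibroblasts 1 of the 65 was above 0, at 0.0546 RPKM. In female fibroblasts it was 0 of 65, which allows a share of up to 4.62% if 3 counts are taken as the limit of a count of 0 (95% Wilson upper limit 5.58%). The 15 shorter loci within the same stretch were all at 0 in ovary and in female fibroblasts, and 2 of them were above 0 in male fibroblasts, up to 0.0559 RPKM.

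Directly before this stretch the scaffold carries 14 loci of 1342 to 60039 bp, most of them with higher values. All 14 were above 0 in ovary (median 7.04, highest 49.6 FPKM), and 11 reached at least 1. Of the same 14 loci, 12 were above 0 in male fibroblasts (median 14.6, highest 118 RPKM) and 12 in female fibroblasts (median 11.5, highest 118 RPKM). At least 1 RPKM was reached by 10 in each fibroblast library. The shortest, of 1342 bp, was low, with 0.123 FPKM in ovary, 0 in male and 0.0448 RPKM in female fibroblasts. Another, of 24897 bp, had 0.0613 FPKM in ovary, 0.0518 RPKM in male and 0.0408 RPKM in female fibroblasts. The change comes between the last of these loci, which ends at position 597374, and the first member, and both loci beyond the last member were at 0 in all libraries.

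**Figure D3:**
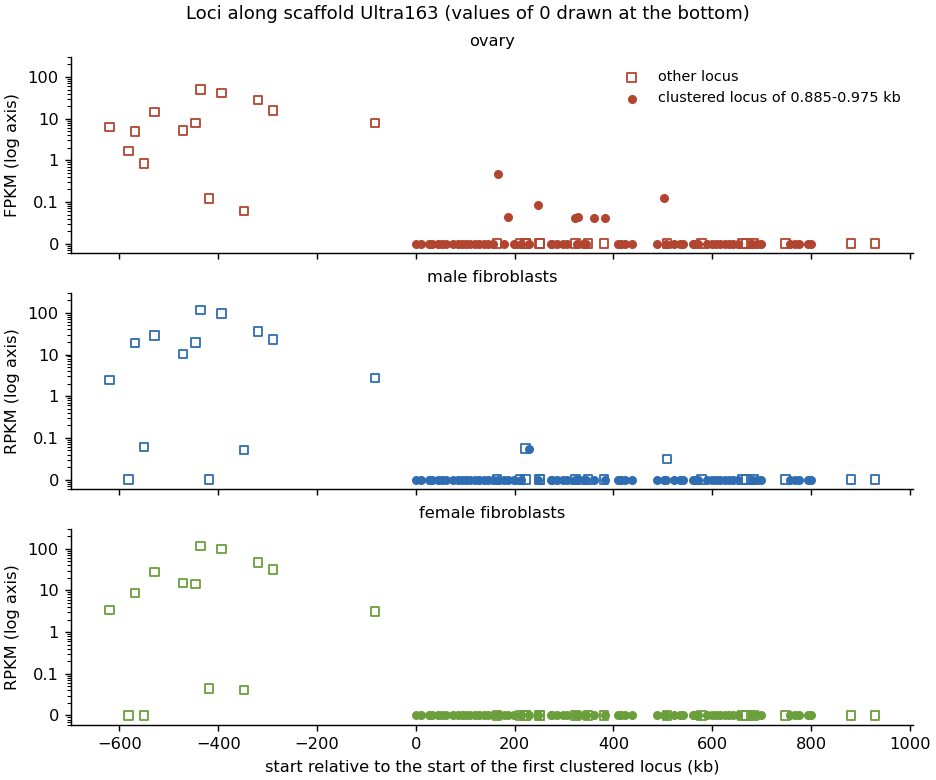
Level of each of the 96 loci on scaffold Ultra163 against its start, in kb from the start of the first clustered locus, in ovary (FPKM), male and female fibroblasts (RPKM; log axes, values of 0 at the bottom). Filled points are the 65 clustered loci of 0.885 to 0.975 kb, which reach at most 0.465 FPKM, and open squares are other loci, of which those before the clustered loci reach 49.6 FPKM in ovary.

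The next largest groups are those of Ultra113 (6 loci), Contig1777, Ultra211 and Ultra484 (5 loci each). On Ultra113, 1 of the 6 was above 0, in ovary at 0.0437 FPKM, and none in fibroblasts. On Contig1777 all 5 were at 0 in the 3 libraries, while a locus beyond the last of them was listed at 37.0 FPKM in ovary, 22.7 RPKM in male and 23.8 RPKM in female fibroblasts. On Ultra211, 1 of the 5 was above 0, at 0.0893 FPKM in ovary. Ultra484 has 5 loci before its first member, all above 1 in each library (6.22 FPKM or more in ovary, 22.3 RPKM or more in fibroblasts), followed by 5 members of which 3 were at 0 in every library. On these 4 scaffolds most members were thus at 0, while 2 of the scaffolds, Contig1777 and Ultra484, carry a locus with reads in all libraries next to the group. The other 2 scaffolds do not. The 3 loci outside the group on Ultra113 reached 21.9 FPKM in ovary, and none was above 0 in fibroblasts. On Ultra211 the 3 loci outside the group reached only 0.0495 FPKM in ovary, with none above 0 in fibroblasts. Another locus within the stretch of the Ultra211 group reached 9.55 FPKM in ovary.

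What stands behind a low FPKM can be read from the interval that the ovary table gives with each value. If its limits stand for 2 square roots of the fragment number on either side, the number comes out whole within 0.02 for 22 of the 25 members above 0. Of these, 7 rest on 1 fragment, 4 on 2 and 1 on 3. A fragment was worth between 0.0413 and 0.0447 FPKM in the members with 1 fragment, and 3 fragments correspond to 0.128 FPKM at the median length. A locus at 0 may thus be transcribed below about this level. On Ultra163, the locus at 0.465 FPKM (positions 785671 to 786609) rests on 11 fragments, and the other 7 above 0 in ovary rest on 1 to 3. The locus at 0.825 FPKM, on Ultra505 (positions 37580 to 38536), rests on 20 fragments and was at 0 in both fibroblast libraries. In 3 cases the member overlaps another listed locus, so that their reads cannot be told apart: Contig6481 (0.0806 FPKM), Contig23097 (4.98e-05 FPKM) and the lower locus of chromosome 4 (0.0237 FPKM). In all, 19 of the 182 members overlap another locus, and none of the 19 reached 1 in any library.

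The fibroblast tables give neither fragments nor the length of the gene models. If a model has the length of its locus, RPKM times length is a whole multiple of what 1 read adds. Of 143 low loci of 600 to 1500 bp in male fibroblasts, 9.79% fell within 0.5% of 1 to 3 steps of 0.0509 RPKM kb, while the median over all steps tried was 0.699%. In female fibroblasts 4.97% of 161 loci did so with a step of 0.0420 RPKM kb (median 1.24%). Read in this way, 3 reads correspond to 0.163 RPKM in the male and 0.135 RPKM in the female library at the median length. The members at 0.0546 (Ultra163) and 0.0555 RPKM (Contig14) in the male library are near the value of 1 read. Each step was chosen as the one with the largest share, so its excess over the median follows from the choice and does not show that the step is real. Because few loci follow the steps, these depths are approximate.

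The highest FPKM listed for a member in ovary was that of ENSOANG00000021378, at positions 4362287 to 4363260 of Ultra274. It was listed at 78.7 FPKM in ovary (authors' interval 53.8 to 104), 1.41 RPKM in male and 2.55 RPKM in female fibroblasts, and was above 0 in all 3 libraries. Its ovary value rests on only 40 fragments, or 1.97 FPKM each, 48.8 times as much as a fragment is worth in members of its length with few fragments. Its FPKM therefore cannot be set against that of other members, and what raises the worth of a fragment was not tested. The member lies at the upper limit of the length range (974 bp), which is not a multiple of 3.

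The upper locus of the pair on chromosome 4, at positions 22152045 to 22153015, was listed at 30.2 FPKM in ovary and at 0 in both fibroblast libraries. It rests on 160 fragments, with 4.65 times the usual worth of a fragment, so that the same limit holds for its level. The other locus of this pair lies 92.2 kb before it, was listed at 0.0237 FPKM in ovary and was also at 0 in fibroblasts. Its low value implies 25 fragments of only 0.000949 FPKM each, far less than the usual worth, so that it cannot be read as nearly silent.

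On Contig819 all 4 members were above 0 in ovary, from 13.9 to 21.3 FPKM, and all 4 in male fibroblasts. The male values at positions 50111 to 51045 (0.0676 RPKM) and 173120 to 174085 (0.0161 RPKM) were low. The second of these is less than the approximate value of 1 read at the median length (0.0545 RPKM). The member at positions 397468 to 398357 had 21.3 FPKM in ovary, 1.34 RPKM in male and 4.09 RPKM in female fibroblasts. The one at 124132 to 125032 had 18.1 FPKM in ovary, 1.65 RPKM in male and 0.707 RPKM in female fibroblasts. Both thus had reads in each library, with the fibroblast libraries in opposite order. The fragments behind 2 of the 4 ovary values were worth 3.05 and 3.44 times the usual amount. For the other 2, computed at 35.9 and 37.5 times, the implied number of 11.3 fragments is not whole, so that this reading of the interval does not hold there. Of the 4 lengths, 1 is a multiple of 3. Between its members lie 52 other loci, of which 47 were above 0 in ovary.

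One member had a high ovary value at the usual worth of a fragment and almost no signal in fibroblasts. It lies on Ultra484 at positions 284000 to 284914, is the last listed locus of the scaffold and is 915 bp long, which is a multiple of 3. It was listed at 18.2 FPKM in ovary (authors' interval 16.4 to 20), 0 in male and 0.0596 RPKM in female fibroblasts. The ovary value rests on 416 fragments, each worth 0.0437 FPKM, the usual amount. Its nearest fellow member on the scaffold, at positions 241970 to 242896, had 0.0860 FPKM in ovary (2 fragments) and 0 in both fibroblast libraries. A high and a low member thus lie 42.0 kb apart on the same scaffold.

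In the fibroblasts, the same 5 members had the highest values in both libraries, 3 of them on Ultra274 and 2 on Contig819. The highest in both was ENSOANG00000021393, on Ultra274 at positions 1469176 to 1470105, with 3.15 RPKM in male and 4.54 RPKM in female fibroblasts and with 17.8 FPKM in ovary. The ovary value rests on 46 fragments at 9.04 times the usual worth. The third member on Ultra274, at positions 1016446 to 1017357, had 0.266 RPKM in male and 0.35 RPKM in female fibroblasts. In ovary it had 2.72 FPKM from 62 fragments, again with the usual worth of a fragment. The 3 members on Ultra274 lie 453 and 2893 kb apart, with 33 other loci between them, 31 of which were above 0 in ovary. Without the 7 members on Ultra274 and Contig819, 2 of 175 members (1.14%) were above 0 in each fibroblast library and 18 (10.3%) in ovary. With the limit of 200 kb applied to scaffolds as well, 173 members were left, 20 of them above 0 in ovary (11.6%) and 4 in each fibroblast library (2.31%).

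**Figure D4:**
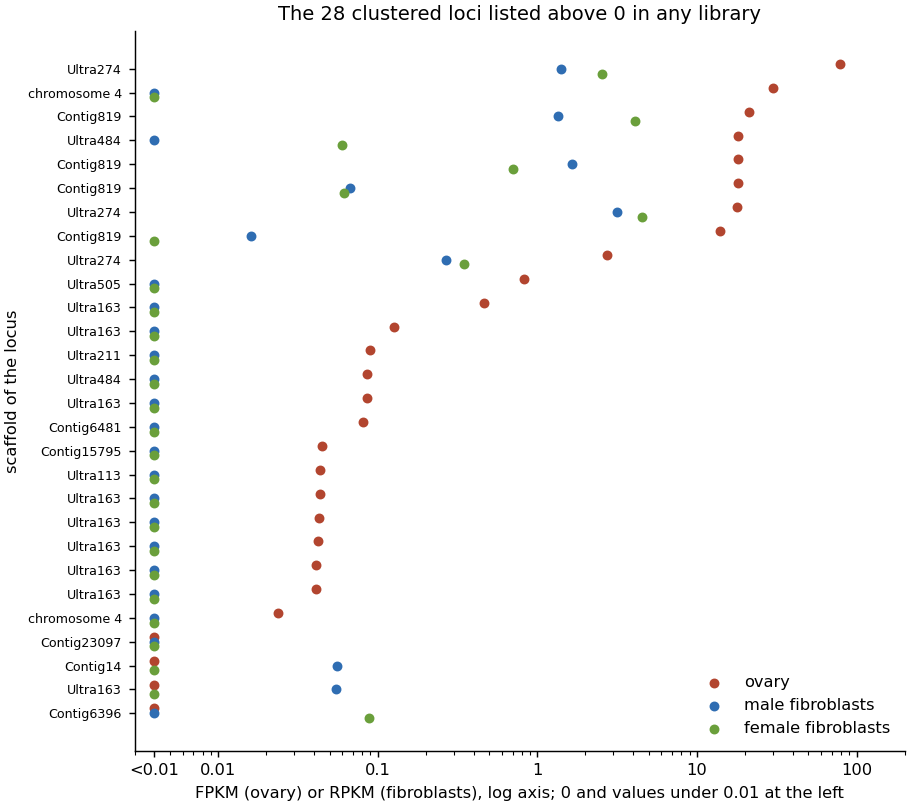
Level of the 28 clustered loci listed above 0 in any library, in ovary (FPKM) and in male and female fibroblasts (RPKM), on a log axis with 0 and values under 0.01 at the left, 1 row per locus labelled with its scaffold. The 9 loci with an ovary value of at least 1 lie on Ultra274, Contig819, Ultra484 and chromosome 4, and most others are near the value of 1 to 3 fragments.

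The fibroblast libraries also allow expression in the male to be compared with that in the female, but for few of these loci. Only 6 members were above 0 in both fibroblast libraries. Their M∶F ratios, divided by the median ratio of genes on numbered chromosomes (0.875, 1655 genes), were 0.375, 0.630, 0.793, 0.871, 1.25 and 2.66. The lowest and the highest both belong to members on Contig819, at positions 397468 to 398357 and 124132 to 125032, and the 3 members on Ultra274 lay between 0.630 and 0.871. The ratio of 1.25 comes from another member on Contig819, at only 0.0676 RPKM in male and 0.0620 RPKM in female fibroblasts. Over all loci above 0 in both libraries, the median ratio by the same division was 1.11. One of the 6 was at least 2-fold higher in the male library, compared to 11.2% of the 12551 loci above 0 in both, and 1 was at least 2-fold lower, compared to 6.80%. With so few loci and 1 library per sex, no direction can be read from these ratios.

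How reads that match several copies were assigned is not given in the sources used here. Sequences of the loci were not analysed here, so the part of near-identical copies in the low shares and in the values of single members was not tested.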

How the data were processed

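RNA-seq libraries of ovary, male fibroblasts and female fibroblasts were analysed, 1 per group, with groups taken from the sample labels. For ovary, the authors deposited 1 FPKM value per locus with the limits of its interval and a position. For the fibroblasts, they deposited an RPKM value per Ensembl gene (a score in the unit records of this work, because 7 genes hold a negative code and were left out). The submitters' processing notes name Bowtie, TopHat 1.0.13 and Cufflinks 1.0.3 without roles. The study's methods name the Ensembl release behind the annotation and call the fibroblast libraries strand-specific. The name of the genome build and whether counting used strand are not given in the sources used here.

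After 4 repeated identifiers were dropped, loci were joined by identifier, and all 182 members had values in every table. Locus lengths are end minus start, since mitochondrial starts begin at 0 and 14 of 36 neighbouring mitochondrial genes meet exactly under this reading. Printed starts were raised by 1. Loci of other lengths were clustered by the same rule within ranges of 91 bp. RefSeq gene spans stood in for protein lengths. No test was run. Members named are the 5 highest of each library, those with the most extreme M∶F ratios (among 4 members that reach an RPKM of 0.5) and the 5 largest groups, and others were named after their values were seen. Members, lists and comparisons were chosen with earlier results of these data known. The steps of the computation were tested on simulated data. Fragment numbers were simulated with the formula that recovers them, so that part could not fail. The simulated loci followed the read step more often than the real ones, so the search was not tested at the strength found here. Values were computed in Python 3.11.15 with pandas 2.3.3, numpy 2.4.6 and scipy 1.17.1, and plotted with matplotlib 3.10.9.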

Additional observations from a re-analysis of the deposited data

How the results depend on the processing

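No paired analysis was possible because there is a single library for each group and no test was run. A share or a difference of shares was described as moved when it left its own 95% interval. The M∶F results had no such interval. Their median was described as moved only outside the wide range of the single members' ratios (0.375 to 2.66). The count past 2-fold was judged by its relative change. Of 76 alternative values, 48 stayed within these limits and 28 moved, and all 35 differences between clustered and other loci stayed below 0. The 48 include values that could not move: a limit of 100 kb on chromosomes left the same 182 members. Settings that leave out scaffolds, need more than 3 fragments or apply the 200 kb limit to scaffolds were chosen after seeing the data. The fragment number is computed from the ovary interval, so that settings on it and on the lower limit are not separate checks. In ovary, the share of clustered loci moved to 6.59% with a minimum of 0.1, with a lower limit above 0 and with more than 3 fragments, and to 4.95% with a minimum of 1. In male fibroblasts it moved to 2.20% with a minimum of 1, to 1.16% in groups of at least 5, to 1.14% without Contig819 and Ultra274 and to 2.31% with the 200 kb limit. In female fibroblasts it moved to 1.65%, 1.16% and 1.14% under the first 3 of these settings. The difference in percentage points moved with a minimum of 1 (-34.7 in ovary, -28.0 in male, -27.7 in female fibroblasts), against unclustered loci of the same length (-22.9, -18.7 and -18.4), against other lengths on the same scaffolds (-32.3, -21.1 and -27.6), against all other lengths (-40.4 in male, -41.5 in female) and without Contig819 and Ultra274 (-40.2 in male, -40.5 in female). The share of lengths that are multiples of 3 moved to 88.4% in groups of at least 5, where Ultra163 supplies 65 of 86 loci. The count of 2 members past 2-fold between the fibroblast libraries became 1 with a pseudocount of 1, 1 with the 200 kb limit and 0 without Contig819, and the median M∶F ratio of the members (0.832) lay between 0.716 and 1.95, on both sides of 1. Groups of at least 5 left no member with a ratio. The causes were not tested.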
